A study of Homo sapiens with 8 samples.

Results

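The MTA2 peak list from human 697 cells held 28760 regions out of 159806 in the 7 lists of the series, and every one of its entries was taken, without a threshold. 697 is an established human pre-B leukaemia cell line, grown here in RPMI-1640 medium with 10% fetal bovine serum. Chromatin was immunoprecipitated with an antibody to MTA2 (from Abcam), or to Mi2, HDAC2, IKAROS, AIOLOS, OCT2 or OCAB, and the input library was made from the same line with no antibody. There were 8 libraries, 1 for each antibody and 1 for input, so that 1 MTA2 library was set against 1 input library. The values come from a single line under a single condition, with no repeat of any immunoprecipitation. No difference here has a replicate check, no p-value is given for any, and all intervals are 95% intervals that cover counting error only. Peaks are not replicates, and reads amplified over 15 PCR cycles without molecular identifiers are not independent molecules.

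MTA2 is a subunit of NuRD, a complex that joins a nucleosome remodelling enzyme, the Mi2 family, to histone deacetylases, among them HDAC2. NuRD is recruited to promoters and enhancers, where it shifts nucleosomes and removes acetyl groups from histones. IKAROS and AIOLOS are zinc finger factors of lymphoid development that are known to associate with NuRD. OCT2 binds the octamer motif of B-cell genes, and OCAB is a coactivator specific to B cells, brought to DNA by octamer factors. In a ChIP-seq peak list, a height is the number of sequenced fragment ends (tags) counted in a region, and the input gives the tags found in the same region without an antibody. The coordinates are on the hg19 build; peaks were not assigned to genes and no sequence was read, since a genome of that build was not used here, and the list itself holds nothing that checks the specificity of the antibody.

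MTA2 peaks carried many more MTA2 tags than input tags. They held 1372436 MTA2 tags, 6.01% of an MTA2 library of 22.8 M tags, against 105325 input tags, 0.496% of an input library of 21.3 M tags. At equal depth this was a 12.1-fold excess over all peaks (interval 12.1 to 12.2). No peak was listed with a fold under 4 over input, so an excess was set by the peak call. Only its size is described here. The peaks covered 7.19 Mb, and 28758 of them were listed at the same width of 250 bp, so that width held no information about the bound region. Height is given per 10 M tags of the library, and 1 MTA2 tag was worth 0.438 of it. The lowest peak stood at 5.25 (12 tags), the median at 16.2 (37 tags), with quartiles of 11.4 and 24.1, and the highest at 1106.5 (2527 tags). Few peaks were very high: 186 exceeded a height of 100. The highest decile of the list held 29.2% of all tags in peaks, against 3.41% in the lowest decile. The highest 1%, 287 peaks at 84.5 or above, held 7.77% on its own.

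The input behind each peak was thin. The median peak held 3 input tags, 1833 peaks (6.37%) held none, 4456 held 1, and 38.2% held at most 2. At the other end, 441 peaks held over 10 input tags and 10 held over 20. The fold over input, as the authors' peak caller listed it, had a median of 11.63, with quartiles of 7.75 and 18.6, from a lowest value of 4. A peak without input tags was listed with 0.5, so its fold depends on that value. The fold over the surrounding region had a median of 8.18 and also a lowest value of 4, and the largest p-value over input in the list, the caller's own, was 9.98e-11.

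**Figure D1:**
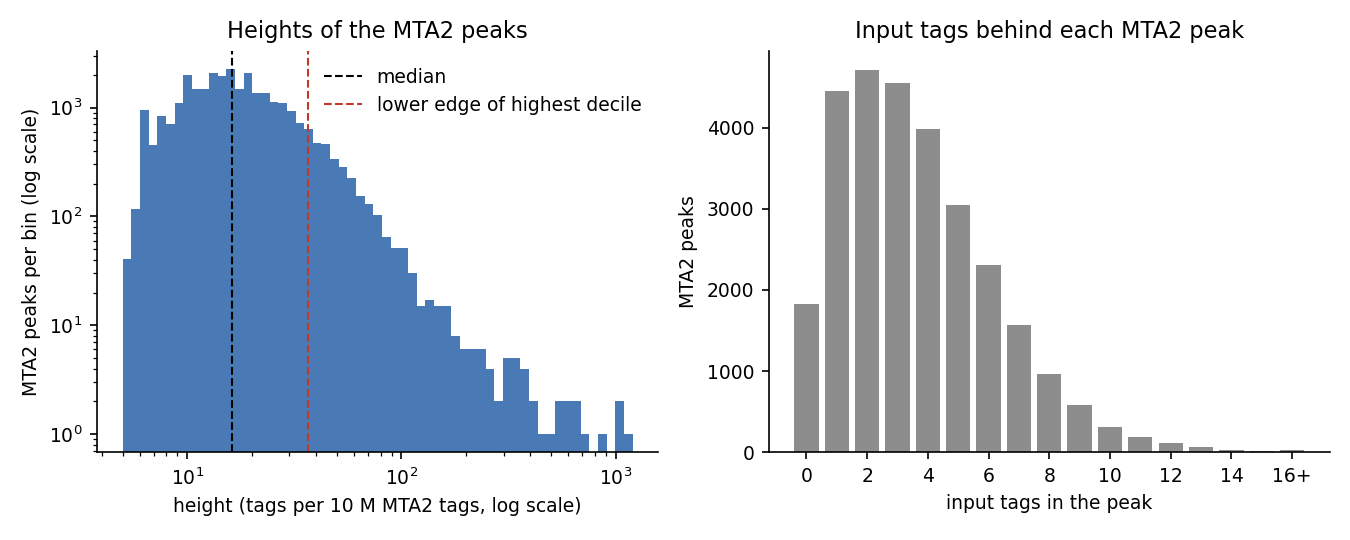
Left, number of MTA2 peaks (log scale) by height in tags per 10 M MTA2 tags (log scale), with lines at the median of 16.2 and at the lower edge of the highest decile, 36.8. Right, number of MTA2 peaks by the number of input tags in the peak; most peaks rest on few input tags, with a median of 3.

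The measures listed for each peak did not rank the peaks alike. Across the 28760 peaks, height followed the findPeaks Score with a Spearman rho of 0.990. Both are made from the same tags. Height followed the number of input tags (rho 0.607) and the fold over the surroundings (rho 0.486). It had almost no rank relation with the fold over input (rho 0.080) or with the focus ratio (rho 0.080), which is the fraction of tags placed where a single sharp binding site would put them. The fold over input ran against the number of input tags it is divided by (rho -0.692). All these measures share the tags of the same 2 libraries, and the rho values are descriptions. No peak was listed under 4-fold over input, so the rho of height and input tags cannot be told apart from that selection.

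Input tags went up with MTA2 height. For this, the list was split by height into 10 deciles of 2876 peaks each. In the lowest decile the median peak had 1 input tag, in the fifth 4, and in the highest 5 (interval 5 to 6). The share of peaks with no input tag was 1.29% in the highest decile, against 30.5% in the lowest. No peak of the lowest decile had more than 2 input tags. The fold over input did not climb evenly with height: from the lowest decile, where it was 15.8, its median dropped to 8.14 in the fifth decile and reached 13.0 in the ninth and 20.2 (19.8 to 20.7) in the highest. With tags summed over each decile, the same U shape was seen, with 19.3 in the lowest decile, 8.46 in the fifth and 22.1 in the highest. Every listed peak had a fold of at least 4 and a caller's p-value of at most 9.98e-11 over input. A low peak meets this only where the input is nearly empty. The rise of input tags with height and the high fold of the lowest decile cannot be told apart from that selection.

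The fold over the surrounding region behaved differently. Its median was 6.10 in the lowest decile, 7.77 in the fifth and 15.1 (14.7 to 15.5) in the highest, with a step up at every decile. The tags that rank the peaks are also the numerator of this fold. The focus ratio was nearly flat over the lower part of the list, with medians of 0.722 in the lowest decile, 0.714 in the fourth and 0.724 in the eighth. It then reached 0.731 in the ninth and 0.752 (0.748 to 0.755) in the highest. The median peak was sharpest in the highest decile, but its quartiles of 0.701 and 0.804 overlapped widely with those of the lowest decile, 0.655 and 0.789. The score had medians of 15 in the lowest decile, 31 in the fifth and 91 in the highest. Per tag it went the other way: the summed score was 0.744 of the summed tags in the highest decile, against 0.940 in the lowest. The highest score in the list was 494. That is close to the 500 positions that a 250 bp window offers on its 2 strands, and the header of the HDAC2 list states a limit of 1 tag per position. The peak with that score held 2434 tags, and the settings behind the MTA2 score were not given. The HDAC2 and MTA2 lists did not share all settings. The HDAC2 header gives a peak size other than 250 bp. It requires a p-value over input of 1e-04, whereas the largest in the MTA2 list was 9.98e-11. Whether the limit of 1 tag per position held for MTA2 was not tested.

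**Figure D2:**
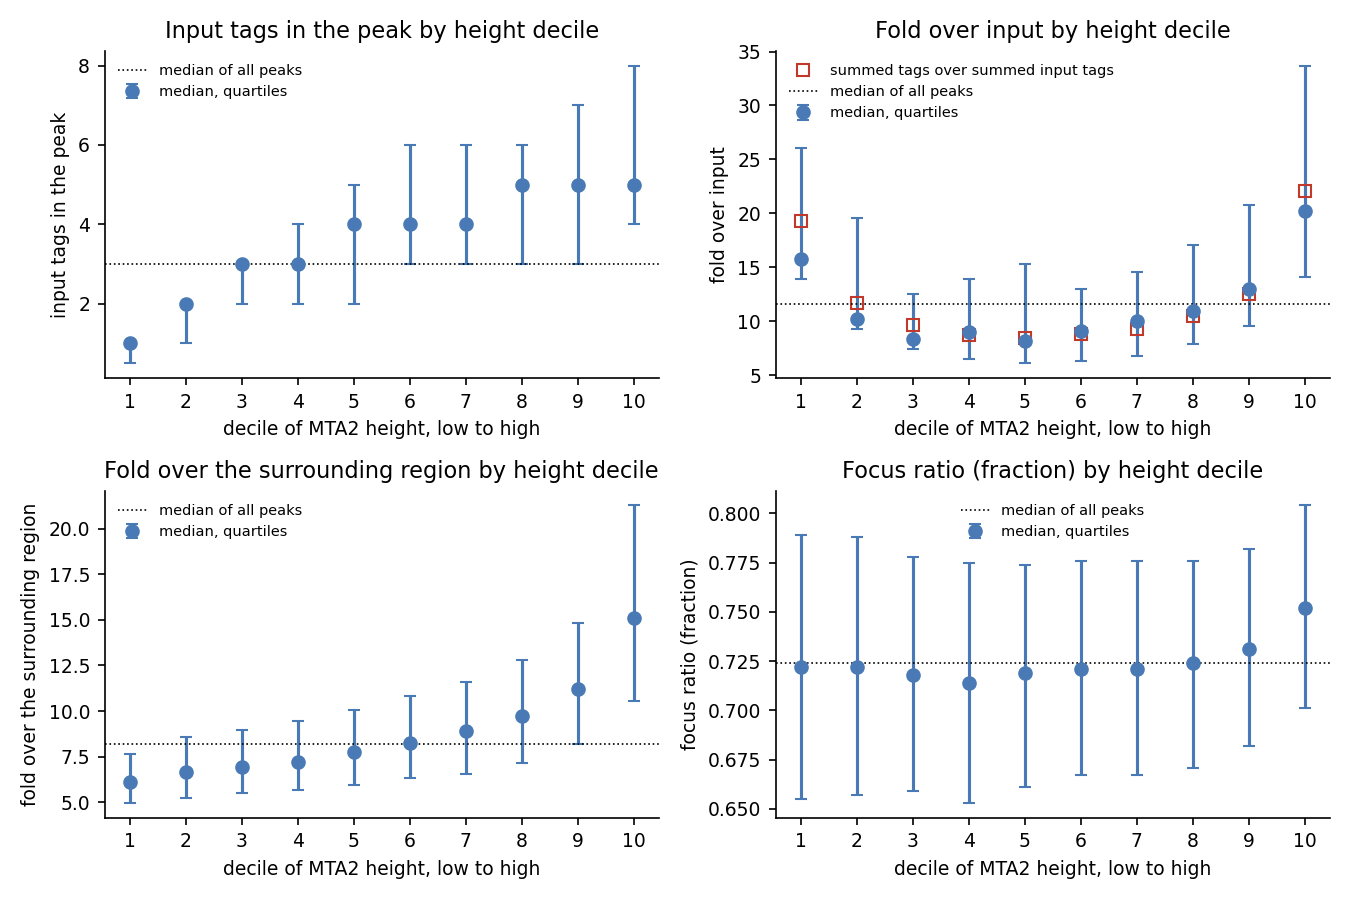
Measures of the MTA2 peaks by decile of height, from 1 (lowest) to 10 (highest), 2876 peaks each: input tags, fold over input, fold over the surrounding region and focus ratio. Circles are medians with quartiles, squares the fold of summed tags, and dotted lines the medians of all peaks; fold over input is U-shaped, while the fold over the surroundings rises through every decile.

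The 287 peaks of the highest 1%, a group singled out after its values were seen, had larger folds again. The group was picked by height, and the same tags are the numerator of both folds. The median was 5 input tags in this group and in the whole highest decile. Their median fold over input was 46.4 (40.57 to 50.01) and their median fold over the surroundings 26.1 (22.96 to 27.86), against 14.5 (14.2 to 14.8) in the rest of the highest decile. Their median focus ratio was 0.791, against 0.749 in the rest of the decile. Within them, the fold over the surroundings and the focus ratio went together with a rho of 0.753, against 0.336 over all peaks. The score gained per tag fell further, to 0.550. Of these peaks, 62 (21.6%, interval 17.2 to 26.7) lay within 2 Mb of an end of the stretch covered by peaks of any list. The share was 7.75% for all MTA2 peaks and 5.91% for the lowest decile. Sequences not placed on a chromosome were counted alike, so the 62 take in peaks there, among them the highest of the list. Nor need the end of that stretch be the end of the chromosome. The 62 peaks near an end were less sharp than the other 225, with a median focus ratio of 0.723 against 0.804.

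The 10 highest MTA2 peaks on chromosomes 1 to 22 and X differed in how far they stood out from their surroundings. Of these, 7 stood less than 25-fold above the region around them, and 3 stood over 100-fold above it. Over the whole list the median was 8.18, the 90th percentile 15.8 and the 99th percentile 31.5, so values under 25 are usual. The highest, at chr10:1613888-1614138, had a height of 1065.8 from 2434 tags, against 7 input tags, a 325-fold excess (interval 157 to 806). It stood 23.3-fold over its surroundings. It overlapped a Mi2 peak of height 110.2 and a HDAC2 peak of height 180.5, and no IKAROS or AIOLOS peak. The next, at chr16:90098479-90098729, had a height of 1059.6 against 4 input tags and carried Mi2, HDAC2, IKAROS and AIOLOS peaks. After it, the peak at chr12:125399208-125399458 had a height of 829.7 with 23 input tags. It was the sharpest of the 10, with a focus ratio of 0.952 and 132-fold over its surroundings, and it overlapped IKAROS, AIOLOS and OCAB peaks but no Mi2 or HDAC2 peak.

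At chr4:185886309-185886559, with a height of 641.0, MTA2 coincided with very high peaks of the lymphoid factors, 2492.1 for IKAROS and 2916.4 for AIOLOS. The peak at chr4:7865740-7865990, with a height of 551.3, 3 input tags and a focus ratio of 0.823, likewise met an IKAROS peak of 2783.8 and an AIOLOS peak of 2249.1. The MTA2 peak at chr11:62608995-62609245 had a height of 549.1 but also 74 input tags, the most on these chromosomes, which left it 15.8-fold over input (12.5 to 20.2). It still stood 117-fold above its surroundings and overlapped every partner except Mi2. The remaining 4 had heights of 702.3 at chr20:51040477-51040727, 645.4 at chr1:1059202-1059452, 589.4 at chr1:18002374-18002624 and 496.1 at chr19:11320586-11320836, with at most 5 input tags each. All 4 carried both Mi2 and HDAC2. Among the 10, HDAC2 was present at 9, Mi2 at 8, IKAROS at 8, AIOLOS at 6, OCAB at 2 and OCT2 at 1.

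MTA2 peaks met the partner lists unequally, and more often the higher they were. A pair of peaks was taken as shared when they overlapped by at least 1 bp. Over all MTA2 peaks, 13.8% overlapped a Mi2 peak, 35.7% a HDAC2 peak, 75.5% an IKAROS peak, 68.6% an AIOLOS peak, 20% an OCT2 peak and 7.54% an OCAB peak. The partner lists differ in length, from 4440 OCAB peaks to 53948 IKAROS peaks, so shares are read along the deciles of 1 partner and not between partners. For HDAC2, a deacetylase of the complex, the share was 7.30% in the lowest decile, 31.3% in the fifth, 58.3% in the ninth and 72.2% in the highest. For Mi2, the remodeller, it was 4.76% in the lowest, 10.2% in the fifth, 21.6% in the ninth and 33.4% in the highest. Highest minus lowest decile came to 64.9 percentage points (63.0 to 66.8) for HDAC2 and 28.6 points (26.7 to 30.5) for Mi2. With partner peaks of at least 8-fold over input it was 35.3 points for HDAC2 and 10.7 points for Mi2, and with centres within 100 bp it was 16.3 points for Mi2. The header of the HDAC2 list required a Poisson p-value over input of 1e-04. With the caller's p-value over input of at most 1e-10 in every list, the difference was 54.6 points for HDAC2 and 28.6 points for Mi2.

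The shares of the lymphoid factors differed little between the ninth and the highest decile. IKAROS was at 51.5% of the lowest decile, 77.3% of the fifth, 86.0% of the ninth and 87.0% of the highest. AIOLOS was at 31.5% of the lowest, 70.7% of the fifth, 86.0% of the ninth and 85.7% of the highest. Between the highest decile and the one below it, the difference was 1.01 points (-0.760 to 2.78) for IKAROS and -0.243 points (-2.05 to 1.56) for AIOLOS, both within counting error. Highest minus lowest decile came to 35.5 points (33.3 to 37.7) for IKAROS, and to 58.1 points where only the 4000 highest peaks of each partner list were used, and to 54.2 points (52.0 to 56.3) for AIOLOS. These shares lie near the top of the scale and the lists are long, so the levelling is not set against that of shorter lists. Over the step from the ninth to the highest decile HDAC2 gained 13.9 points (11.5 to 16.3), Mi2 11.8 points (9.49 to 14.1), OCT2 16.9 points (14.4 to 19.4) and OCAB 11.3 points (9.28 to 13.2). The octamer factor OCT2 was at 5.95% of the lowest decile, 14.5% of the fifth and 51.6% of the highest, and its coactivator OCAB at 2.02%, 4.24% and 24.1% of the same deciles.

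**Figure D3:**
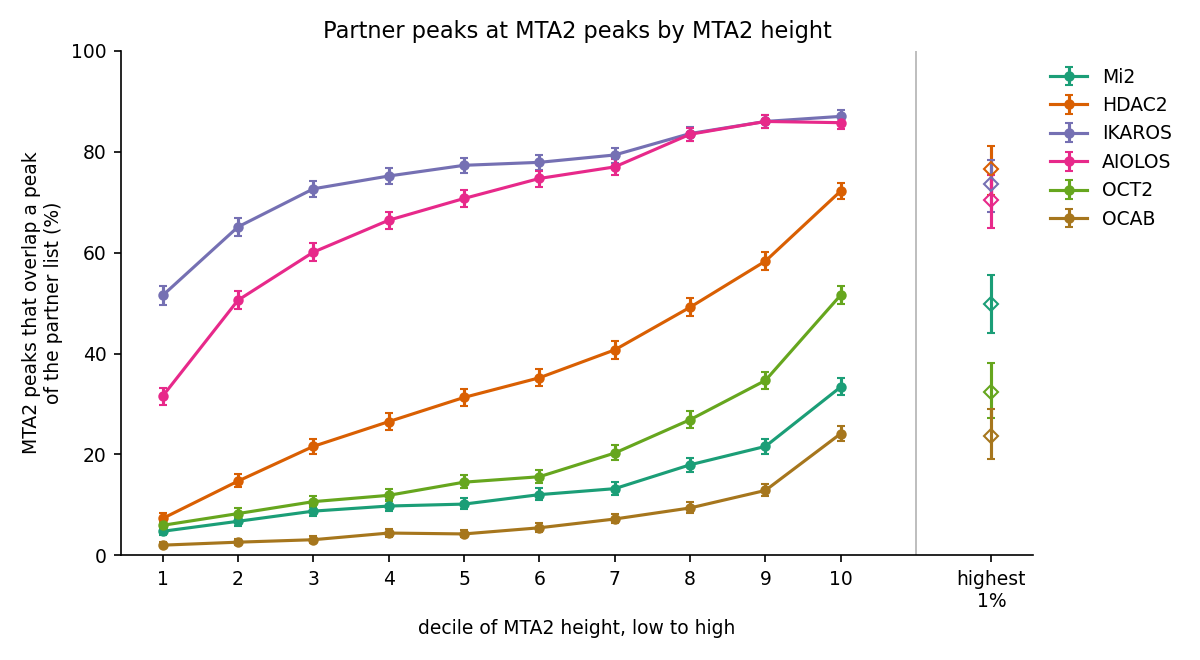
Percent of MTA2 peaks that overlap a peak of each partner list, by decile of MTA2 height from 1 (lowest) to 10 (highest), 2876 peaks each, and in the highest 1% (287 peaks, open diamonds); bars are Wilson 95% intervals. IKAROS and AIOLOS, the longest lists, stand near 86% in the ninth and highest deciles, close to the top of the scale. HDAC2 is at 72.2% in the highest decile. IKAROS, AIOLOS and OCT2 are lower again in the highest 1%. The lists differ in length, so the curves are read along 1 partner and not between partners.

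The partner peaks also grew with the MTA2 peak they met. At shared peaks, the median IKAROS height was 14.5 in the lowest MTA2 decile, 33.4 in the fifth and 120.6 in the highest. AIOLOS stood at 15.6 in the lowest, 27.4 in the fifth and 96.8 in the highest, and HDAC2 at 11, 13.7 and 26.6 in the same deciles. OCAB changed little, from 13.95 in the lowest decile through 15.4 in the fifth to 17.7 in the highest. Across shared peaks, MTA2 height followed the partner height with a rho of 0.694 for IKAROS (21728 peaks), 0.679 for AIOLOS (19734), 0.676 for HDAC2 (10267), 0.595 for OCT2 (5759), 0.498 for Mi2 (3979) and 0.095 for OCAB (2169).

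How many partners a peak met shifted along the list. The mean number of partner lists met was 1.03 in the lowest decile, 2.08 in the fifth and 3.54 in the highest. MTA2 peaks without any partner made up 14.7% of the list, 4233 peaks. They numbered 107 of 2876 in the highest decile (3.72%), against 1172 of 2876 in the lowest (40.8%). All 6 partners were met by 240 peaks of the highest decile (8.34%) and by none of the 2876 peaks of the lowest, a count of 0 that allows a share of up to 0.104% (3 counts).

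The measure that ranks the peaks bears on this result. By fold over input in place of height, IKAROS was at 75.2% of the highest decile and 75.1% of the lowest, a difference of 0.104 points (-2.13 to 2.34), and AIOLOS at 70.7% and 67.7%. The shares kept their direction for HDAC2, at 50.4% of the highest and 19.3% of the lowest fold decile, for OCT2 at 36.4% and 7.30%, for Mi2 at 25.8% and 7.23%, and for OCAB at 16.7% and 3.96%. The highest fold decile had a median of 1 input tag and a median height of 19.7, the lowest 7 input tags and a height of 15.8. Partner peaks were also called over input, with 4-fold required in the header of the HDAC2 list, and the series has 1 input library. The fold ranking is thus not independent of the partner calls, and the part of low input in these shares was not tested. Peaks with exactly 1 input tag were also compared between the highest and the lowest height decile. Their shares were 83.6% (117 of 140) and 7.34% (128 of 1745) for HDAC2. They were 46.4% and 5.50% for Mi2, 77.1% and 52.7% for IKAROS, and 78.6% and 32.7% for AIOLOS. A count of 1 tag does not hold the underlying input equal. At an equal count, ranks by height and by fold are the same, so the limit of the fold ranking applies here too.

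Within the highest 1% the partners parted. Mi2 overlapped 49.8% of these peaks, against 31.6% in the rest of the highest decile, a difference of 18.3 points (12.2 to 24.3). HDAC2 stood at 76.7% against 71.7%, which counting error does not separate (4.93 points, -0.568 to 9.78). IKAROS was lower, at 73.5% against 88.5%, a difference of -15.0 points (-20.5 to -10.0), and AIOLOS at 70.4% against 87.4%, a difference of -17.1 points (-22.7 to -11.9). OCT2 was lower as well, at 32.4% against 53.7%, a difference of -21.3 points (-26.8 to -15.4), while OCAB, at 23.7% against 24.2%, differed by less than counting error (-0.486 points, -5.34 to 5.002). Without the peaks counted as within 2 Mb of an end, those on unplaced sequences included, the difference was -9.32 points for IKAROS, -11.6 for AIOLOS and -15.1 for OCT2. Ranked by fold over input, OCT2 turned round to 7.21 points, and IKAROS (-4.93 points, -10.7 to 0.308) and AIOLOS (-3.47 points, -9.35 to 1.98) were no longer separated from 0. In that ranking Mi2 (23.2 points, 17.2 to 29.2), HDAC2 (28.4 points, 22.8 to 33.3) and OCAB (8.94 points, 4.08 to 14.4) were separated from 0. The limit given above for the fold ranking holds here too.

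Some high MTA2 peaks met no partner at all. The highest, at chr5:397110-397360, had a height of 238.2 with 2 input tags but stood only 5.40-fold over its surroundings, with another MTA2 peak 1012 bp away. The peak at chr19:57874618-57874868, at 164.2 with 8 input tags, stood 109-fold over its surroundings with a focus ratio of 0.928. The 3 that followed had heights of 158.9 at chr2:1707953-1708203, 140.1 at chr13:48611980-48612230 and 134.4 at chr11:57435116-57435366.

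The 3 sharpest peaks of the highest decile met no partner either, as did 3.72% of that decile. They lay at chr16:89557079-89557329 (focus ratio 0.974, height 80.6), chr17:73178917-73179167 (0.962, height 77.5) and chr7:74508756-74509006 (0.962, height 44.7). The last stood 360-fold over its surroundings. The 3 most diffuse peaks of that decile had focus ratios of 0.493 at chr9:138088544-138088794, where Mi2, HDAC2, IKAROS and AIOLOS peaks also lay, 0.502 at chr6:21587818-21588068 and 0.506 at chr2:240640846-240641096.

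High input marked a few peaks. After the chromosome 11 peak with 74 input tags came chr1:145004344-145004594 with 25, where MTA2 had a height of 67.0 and a fold of 5.69 (3.72 to 9.08). The chromosome 12 peak named above and chr4:191043940-191044190 had 23 each, and chr8:117778537-117778787 had 19. The last pair met no partner, and at the chromosome 8 peak the fold over input was 4.11 (2.48 to 7.17), just above the lowest value in the list.

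MTA2 peaks often lay near one another. The median distance from a peak to its nearest neighbour, centre to centre, was 12.8 kb (12.6 to 13.1), with quartiles of 4.84 and 34.8 kb. A neighbour lay within 1 kb of 8.30% of peaks, within 5 kb of 25.5%, within 10 kb of 43.4% and within 100 kb of 92.0%. Higher peaks had nearer neighbours up to a point: the median distance was 24.5 kb in the lowest decile, 11.4 kb in the fifth, 9.70 kb in the eighth and 10.6 kb in the highest. Every listed peak stood at least 4-fold over its surroundings, so a low peak close to a much higher one may be missing from the list. The part of this in the distances was not tested.

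Heights of neighbours were alike only at short range. For the 3806 neighbouring pairs within 5 kb, the rho of their heights was 0.608, and 0.158% of pairs differed by over 4-fold. For the 24925 pairs farther apart it was 0.0791, and 8.17% differed by over 4-fold. The change was abrupt, with a rho of 0.626 for pairs 2 to 5 kb apart and 0.0957 for pairs 5 to 10 kb apart. The number of pairs per kb of distance also broke there, with 494 at 2 to 5 kb and 674 at 5 to 10 kb. The lowest fold over the surroundings in the MTA2 list was 4, and the header of the HDAC2 list states a required 4-fold over a local region of 10000 bp. The HDAC2 and MTA2 lists did not share all settings, and the size of the local region used for MTA2 was not given. The part of a local filter in the likeness of close neighbours was not tested.

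**Figure D4:**
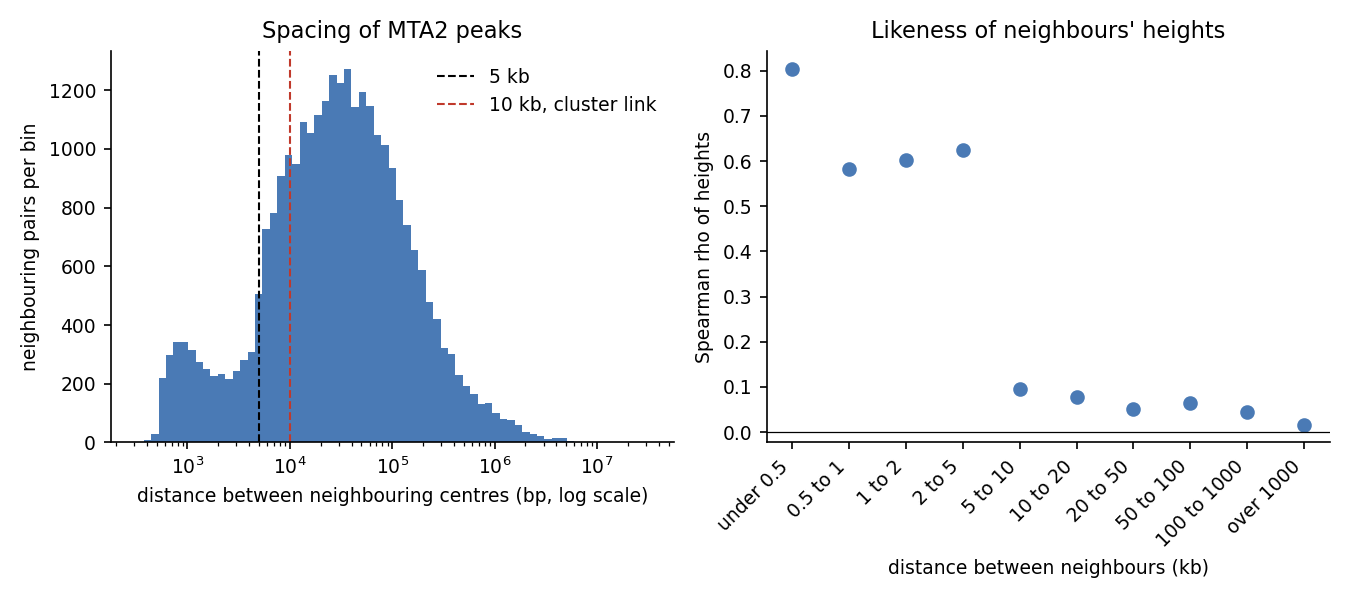
Left, number of neighbouring MTA2 pairs by the distance between their centres (bp, log scale), with lines at 5 kb and at the 10 kb used to link clusters. Right, Spearman rho of the heights of neighbouring peaks by distance class in kb; it is 0.626 at 2 to 5 kb and 0.0957 at 5 to 10 kb.

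Peaks linked by gaps of at most 10 kb formed 5309 clusters with 12485 peaks, 43.4% of the list. Most were small, with 4009 pairs and 911 triples, and 118 held 5 or more peaks. Clustered peaks had a median height of 17.5, against 14.9 for lone peaks, and a median of 4 input tags, against 3. Their fold over the surroundings was 6.84, against 9.38, a difference that cannot be told apart from how clusters were formed, since a neighbour in the surrounding region adds to what the peak is divided by. They had nearly the same focus ratio, 0.721 against 0.727. The share in clusters was 24.5% in the lowest decile, 46.5% in the fifth, 51.1% in the ninth and 47.6% in the highest. The part of a filter on the surroundings in these shares was not tested. Highest minus lowest came to 23.1 points, and to 23.6 points among peaks with at most 2 input tags, an alternative chosen after the data were seen.

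The largest cluster held 10 MTA2 peaks over 39.7 kb at chr1:203236470-203276122. Their heights ran from 14.9 to 66.1, and each had 5 to 15 input tags, more than the median of the list. The highest, at 66.1, met HDAC2, IKAROS, AIOLOS, OCT2 and OCAB peaks. Another 3 clusters held 8 peaks each. In the cluster at chr11:66079417-66115741, with heights of 15.3 to 74.4, 2 peaks fell in the highest decile. The one at chr19:14656347-14688437 reached 39.4 and had no peak above 10 input tags, and the one at chr9:140013312-140053463 reached only 33.7, with none in the highest decile. Of the 9 clusters of 7 peaks, the one with the highest summed height (306.4), at chr19:45946816-45989406, was uneven, with 1 peak of height 142.7 and 6 between 17.5 and 36.3.

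Chromosomes differed in MTA2 peaks per Mb of the stretch covered by peaks of any list. Chromosome 19 had 27.1 (25.8 to 28.5), chromosome 22 had 22.5 (21.0 to 24.2) and chromosome 17 had 19.4 (18.4 to 20.4). The sparsest were chromosome 18 with 7.31 (6.72 to 7.93), chromosome 4 with 5.34 (5.02 to 5.68) and X with 3.49 (3.19 to 3.80). On chromosome 19, 56.5% of peaks lay in clusters and the median neighbour was 8.44 kb away, against 38.0% and 19.1 kb on chromosome 4. Peaks were also somewhat higher on chromosome 19, with a median of 17.5 (17.1 to 18.0) and 12.4% in the highest decile, than on chromosome 4, with 14.4 (14.0 to 14.9) and 6.96%.

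The X chromosome stood apart in more than density. Its 530 peaks had a median height of 10.5 (10.1 to 10.9), against 16.2 (15.8 to 16.2) for the 28199 peaks on autosomes. In the lowest decile lay 27.0% of the X peaks, against 9.68% of the autosomal ones, and in the highest decile 2.64% against 10.1%. Input was lower there too, with a mean of 1.66 input tags per peak (1.55 to 1.77) on X, against 3.69 (3.67 to 3.71) on autosomes. The fold over input of summed tags was higher on X, 16.9, than on autosomes, 12.1. X peaks lay more often in the lowest decile, where this fold was 19.3 over the list. The difference cannot be told apart from the selection of low peaks with little input. Chromosomes 1 and 8 had the most input per peak, at 4.30 (4.22 to 4.37) and 4.25 (4.14 to 4.37) tags, with 12.7% and 12.3% of their peaks in the highest decile. The part of chromosome copy number in these values was not tested.

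**Figure D5:**
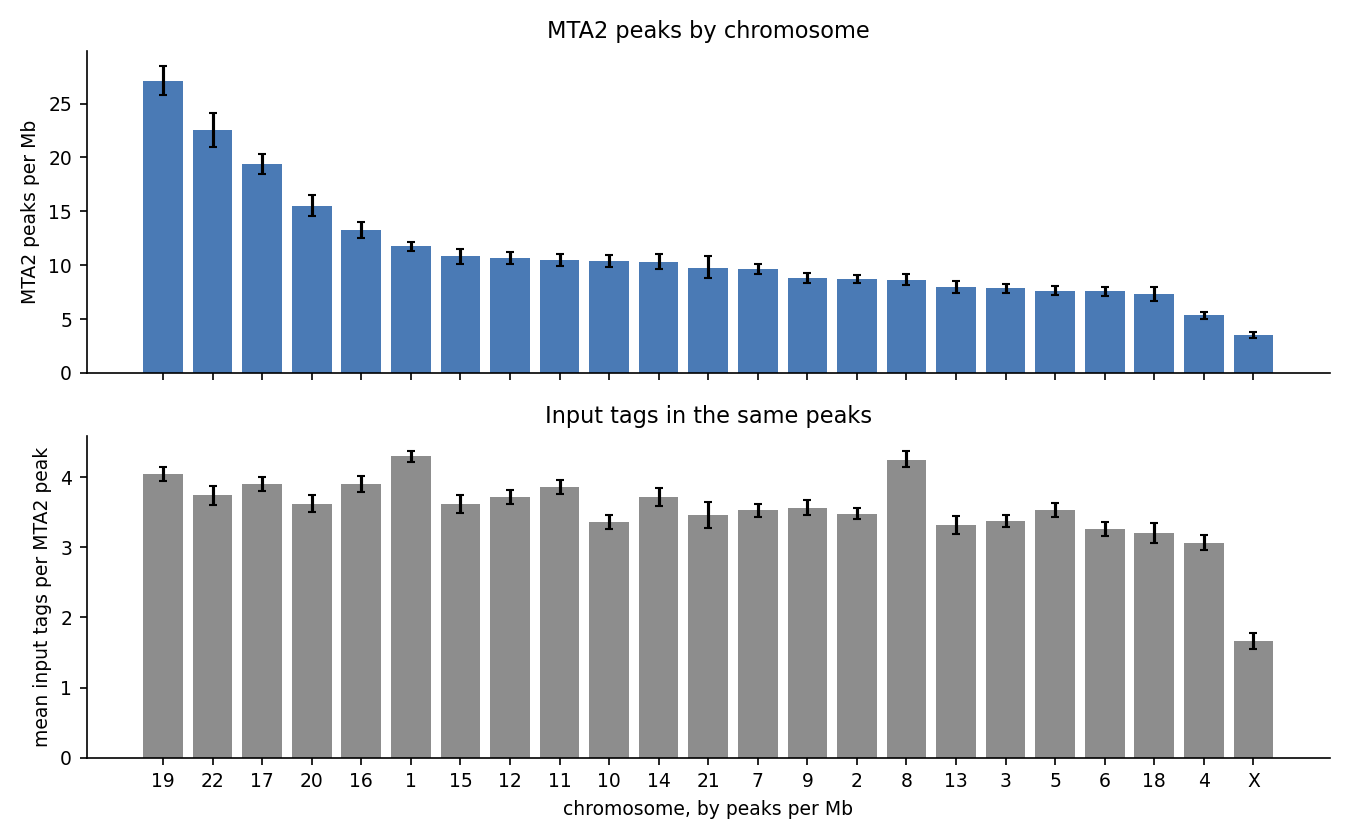
MTA2 peaks per Mb (above) and mean input tags per MTA2 peak (below) for chromosomes 1 to 22 and X, ordered by peaks per Mb; bars are exact Poisson 95% intervals. Density runs from 27.1 on chromosome 19 to 3.49 on X, and X has the lowest input per peak, 1.66.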

How the data were processed

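The 7 peak lists were analysed, 1 per antibody. Per the submitters' processing notes, reads were called with CASAVA 1.8.2 (1.4 for HDAC2), aligned to hg19 with Bowtie2 2.3.2.2 and peaks were called with HOMER 4.9.1; the peak caller's settings are given for HDAC2, in its header, and those of MTA2 were not given in the sources used here. The authors deposited, for each peak, its height as a signal (Normalized Tag Count, tags per 10 M), control tags, the ratio or fold over input and over the local region, a p-value for each, the focus ratio as a fraction, and the findPeaks Score.

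Whole tags were recovered from the steps of the height (100% within 0.15 tag) and input depth from the listed folds. Peaks were split into 10 equal groups (deciles) by height, ties ordered by position. Clusters linked centres within 10 kb. Shares have Wilson intervals, except that a count of 0 is limited at 3 counts, their differences Newcombe intervals, counts exact Poisson intervals, folds of 2 counts exact conditional binomial intervals and medians distribution-free binomial intervals. No test was run, since each antibody has 1 library. Named regions were those on chromosomes 1 to 22 and X with the 10 highest peaks, the 5 highest without a partner, the 5 largest clusters (ties broken by summed height), the 5 with most input tags and the 3 highest and 3 lowest focus ratios of the highest decile, and the 3 densest and 3 sparsest chromosomes; the highest 1% was added after its values were seen. The members and lists were chosen with earlier results of these data known. Alternatives were other thresholds, ranking measures, overlap rules, cluster links and chromosome sets. The calculations recovered 9 of 9 quantities within 2% on simulated data. Python 3.11.15, numpy 2.4.6, pandas 2.3.3, scipy 1.17.1 and matplotlib 3.10.9 were used.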

Additional observations from a re-analysis of the deposited data

How the results depend on the processing

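No paired analysis was possible because each antibody has 1 library, and leaving out a replicate was not possible for the same reason. Of 97 values under an alternative, 48 moved by less than the counting interval, 47 moved by more and 2 reversed. Restricting to peaks of at least 8-fold over input gave a median height of 16.6, a median of 2 input tags, a nearest neighbour at 19.1 kb and 33.6% of peaks in clusters; a p-value limit of 1e-20 gave a median height of 22.8. Per 10 M input tags, the median input was 1.41. Links of 5 and 20 kb put 25.5% and 61.6% of peaks in clusters, and at 5 kb the highest and lowest deciles differed by 15.8 points.

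Deciles of fold over input reversed the difference in input tags, highest minus lowest, to -6.0, and gave 7.0 for the score and 2.15 for the fold over the surroundings; deciles of score gave 0.023 for the focus ratio. For partner shares, highest minus lowest decile in points, deciles of fold gave 18.6 (Mi2), 31.1 (HDAC2), 0.104 (IKAROS), 3.06 (AIOLOS), 29.1 (OCT2) and 12.7 (OCAB). Centres within 100 bp gave 16.3 (Mi2), 52.3 (HDAC2), 51.7 (AIOLOS), 40.2 (OCT2) and 18.3 (OCAB). Partner peaks of at least 8-fold over input gave 10.7 (Mi2), 35.3 (HDAC2), 27.3 (OCT2) and 11.8 (OCAB). A p-value of at most 1e-10 in every list gave 54.6 for HDAC2. The 4000 highest peaks per partner list gave 58.2 (HDAC2), 58.1 (IKAROS) and 57.7 (AIOLOS). Peaks with at most 2 input tags, added after seeing the data, gave 41.9 (Mi2), 71.6 (HDAC2), 28.2 (IKAROS), 45.4 (AIOLOS), 49.4 (OCT2) and 32.1 (OCAB), from 399 peaks of the highest and 2876 of the lowest decile.

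For the highest 1% minus the rest of its decile, in alternatives added after seeing the data, leaving out peaks within 2 Mb of an end gave 12.2 (Mi2), -9.32 (IKAROS), -11.6 (AIOLOS), -15.1 (OCT2) and 5.15 (OCAB). Ranking by fold gave 23.2 (Mi2), 28.4 (HDAC2), -4.93 (IKAROS), -3.47 (AIOLOS), 8.94 (OCAB) and, reversed, 7.21 (OCT2). Centres within 100 bp gave -20.6 for IKAROS. The causes of these changes were not tested. The 3 input tags of the median peak limit the precision of any single fold.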

Other observations

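The MTA2 list also held 16 peaks on 5 sequences not placed on a chromosome, described here after their values were seen. Their heights ran from 8.32 to 1106.5 with a median of 37.0, and 8 of them fell in the highest decile. Their input was heavy, with a median of 16 and up to 195 input tags, against a median of 3 on chromosomes 1 to 22 and X. The highest MTA2 peak of the whole list lay among them, on the sequence Un_gl000220, with 2527 tags against 195 input tags, a fold of 12.1 (10.4 to 14.0), and it overlapped only an OCT2 peak, of height 593.0. On another, 17_gl000205_random, 3 MTA2 peaks of heights 587.6, 390.1 and 357.7 lay within a few kilobases and met IKAROS peaks of 4438.5, 2982.7 and 2843.7. These peaks were kept in all deciles and shares, as were 15 on chromosome Y, and leaving out both sets together changed none of the partner differences between the highest and lowest decile by more than the counting interval.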
